A study of Mus musculus with 17 samples.

Results

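GABA9 is the deposited name of a group of GABA neurons of the mouse hypothalamus, and its 71 cells are those to which the authors' cell table gives that name. Against these 71 cells, 14366 annotated cells carried other names, so that GABA9 was 0.492% of all, 71 of 1392 cells in the 18 GABA clusters (5.1%) and 3.07% of all named neurons. Of the other GABA clusters 5 held more cells and 1 as many. The cells came from the hypothalamus of B6D2F1 hybrid mice (C57BL6 mother, DBA2 father), either fed normally (5 mice) or deprived of food for 24 hours (3 mice), and no other treatment or allele is named in the labels. Single-cell RNA was counted by Drop-seq, in which each transcript is tagged in a droplet with a barcode of its cell and with a molecule tag, so that 1 tag (UMI) stands for 1 transcript. Levels are given in CPM, the UMIs of a gene scaled to a fixed total of all UMIs that the cells of the cluster held in 1 mouse. The labels give neither the age of the mice nor the time of day at which the tissue was taken. Fed mice 1 and 2 were batch 0 and had no GABA9 cell, fed mouse 3 and food-deprived mouse 1 were batch 1, fed mouse 4 and food-deprived mouse 2 batch 2, fed mouse 5 batch 3 and food-deprived mouse 3 batch 4.

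Vip encodes vasoactive intestinal polypeptide. In the hypothalamus it is best known from the suprachiasmatic nucleus (SCN), the pacemaker of daily rhythms, whose neurons nearly all make the inhibitory transmitter GABA. Vip neurons and the partly overlapping Grp (gastrin-releasing peptide) neurons lie in the SCN core, which receives input from the eye, and Avp (vasopressin) neurons lie mainly in its shell. VIP is released by core neurons onto cells that carry its receptor Vipr2 and keeps the clocks of SCN cells in step. Lhx1, a homeodomain transcription factor, is needed for the expression of several SCN peptides and for this coupling.

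The GABA9 cells held 241048 UMIs, with a median of 2967 per cell and a range from 860 to 10273. Fed mice 3, 4 and 5 gave 10, 7 and 8 cells with 44471, 29692 and 13905 UMIs. Food-deprived mice 1, 2 and 3 gave 16, 9 and 21 cells with 65504, 37469 and 50007 UMIs. A gene with 1 UMI therefore stood at 15.3 to 71.9 CPM, and low values rest on a few transcripts. No GABA9 barcode occurred in a library of another mouse, and 3 of the cells had a barcode found in 2 libraries of the same mouse. Of these 3 cells, 2 share a barcode of fed mouse 3, with 54 and 19 Vip UMIs. The libraries fell into 9 with Gapdh under 50 CPM and few ribosomal protein UMIs, called depleted here, and 8 retained ones. All GABA9 cells of fed mouse 3 came from depleted libraries, and all those of fed mouse 5 and food-deprived mouse 3 from retained ones.

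The markers fitted the name. Gad2, an enzyme of GABA synthesis, had a UMI in 54 of 71 cells, the vesicular GABA transporter Slc32a1 in 52, and Vip in 53. Of the glutamate transporters, Slc17a7 and Slc17a8 were at 0 and Slc17a6 had 1 UMI, in fed mouse 3. Oligodendrocyte precursor and macrophage markers were at 0 in all 4 and all 3 genes. The 7 markers of myelinating oligodendrocytes all had UMIs and summed to 360 to 652 CPM in the fed and 180 to 718 CPM in the food-deprived mice, and their part in the values below was not tested. The 6 astrocyte markers summed to at most 153 CPM, with Agt at 0, and the 5 microglia markers to at most 45.0 CPM, with C1qa, Csf1r and Cx3cr1 at 0. The 5 endothelium markers all had UMIs and summed to at most 157 CPM, in fed mouse 3. Of the 5 blood markers only Beta-s had UMIs, at up to 144 CPM in fed mouse 5. Its mean was highest in GABA9 among the GABA clusters.

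Vip was the gene by which GABA9 differed most from other GABA neurons. It stood at 5554, 4075 and 18626 CPM in fed mice 3 to 5 and at 22197, 11823 and 6439 CPM in food-deprived mice 1 to 3. All 6 mice were far above the GABA8 mean, and the fed and the food-deprived ranges overlapped. The mean was 11453 ± 7502 CPM (SD, n = 6 mice), and over the 3 mice with at least 10 cells 11397 ± 9364 CPM. Of these 3, food-deprived mouse 1 was the highest, and without it the mean was 5997 CPM. GABA8, the large neighbouring cluster, had 201 ± 258 CPM (n = 7), and no other GABA cluster had a mean above that. GABA9 held 79.3% of all Vip UMIs of the annotated cells, GABA8 7.46% and the unnamed remainder 11.7%. Since the clusters were made from these genes, differences between clusters are descriptions and carry no test.

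Vip and Avp are the peptides that set GABA9 and GABA8 apart, and the 250 bases before their start sites are shown with the motifs found in them in capitals. The windows are from RefSeq (GRCm38.p6), 5′ to 3′ on the gene's strand, at chr10:5638968-5639217 on the plus strand for Vip and chr2:130582589-130582838 on the minus strand for Avp.
Vip: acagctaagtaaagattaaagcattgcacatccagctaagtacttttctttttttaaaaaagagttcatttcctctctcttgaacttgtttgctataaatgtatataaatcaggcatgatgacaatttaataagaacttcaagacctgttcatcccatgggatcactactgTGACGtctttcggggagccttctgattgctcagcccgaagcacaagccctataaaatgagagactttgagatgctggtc
Avp: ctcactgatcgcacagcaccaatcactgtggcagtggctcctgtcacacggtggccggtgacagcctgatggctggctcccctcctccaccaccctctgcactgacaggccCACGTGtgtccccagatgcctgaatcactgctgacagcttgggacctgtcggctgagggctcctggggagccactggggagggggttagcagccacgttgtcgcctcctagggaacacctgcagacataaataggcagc
Both strands were searched for the cyclic AMP response element TGACGTCA, its half-site TGACG, the E-box CACGTG, which clock factors can bind, and the homeodomain core TAATTA. The Vip window held 1 half-site, starting 79 bases before the start, and none of the other letters. The Avp window held 1 E-box and no half-site. Among 32851 promoter windows of this length 17.8% held the half-site, 6.02% the E-box, 4.84% the homeodomain core and 1.55% the whole element, which contains the half-site. A match of letters is a description and not a site in use.

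Grp was the other peptide highest in GABA9 among the GABA clusters. It stood at 2676, 1617 and 503 CPM in the fed and at 214, 454 and 1220 CPM in the food-deprived mice, a mean of 1114 ± 930 CPM. The next cluster, GABA17, had a mean of 15.7 CPM, and GABA8 had 10.1 ± 13.5 CPM. Unlike Vip, Grp lay largely outside GABA9 as well. Of all Grp UMIs of the annotated cells GABA9 held 40.4% and the unnamed remainder 42.6%. Nms (neuromedin S), a peptide found in part of the SCN's Vip and Avp cells, was lower than in GABA8. Its levels were 22.5, 67.4 and 144 CPM in the fed and 382, 214 and 200 CPM in the food-deprived mice, against 616 ± 290 CPM in GABA8. Avp was at 75.0 ± 86.7 CPM in GABA9 and at 11940 ± 5192 CPM in GABA8. A UMI of Avp was found in 14.1% of GABA9 cells (median 2967 UMIs) and in 8.73% of the cells of the oligodendrocyte cluster MO (median 2187 UMIs), which should lack it. Thinned to 1000 UMIs per cell the shares were 5.53% in GABA9, 3.97% in MO, 2.83% in the other GABA clusters and 62.4% in GABA8. Penk, encoding enkephalins, ran from 71.9 to 694 CPM. Prok2 and Cck, both found at 91.3 and 378 CPM in GABA8, had 2 and 1 UMIs in GABA9, and Calcb had none.

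**Figure D1:**
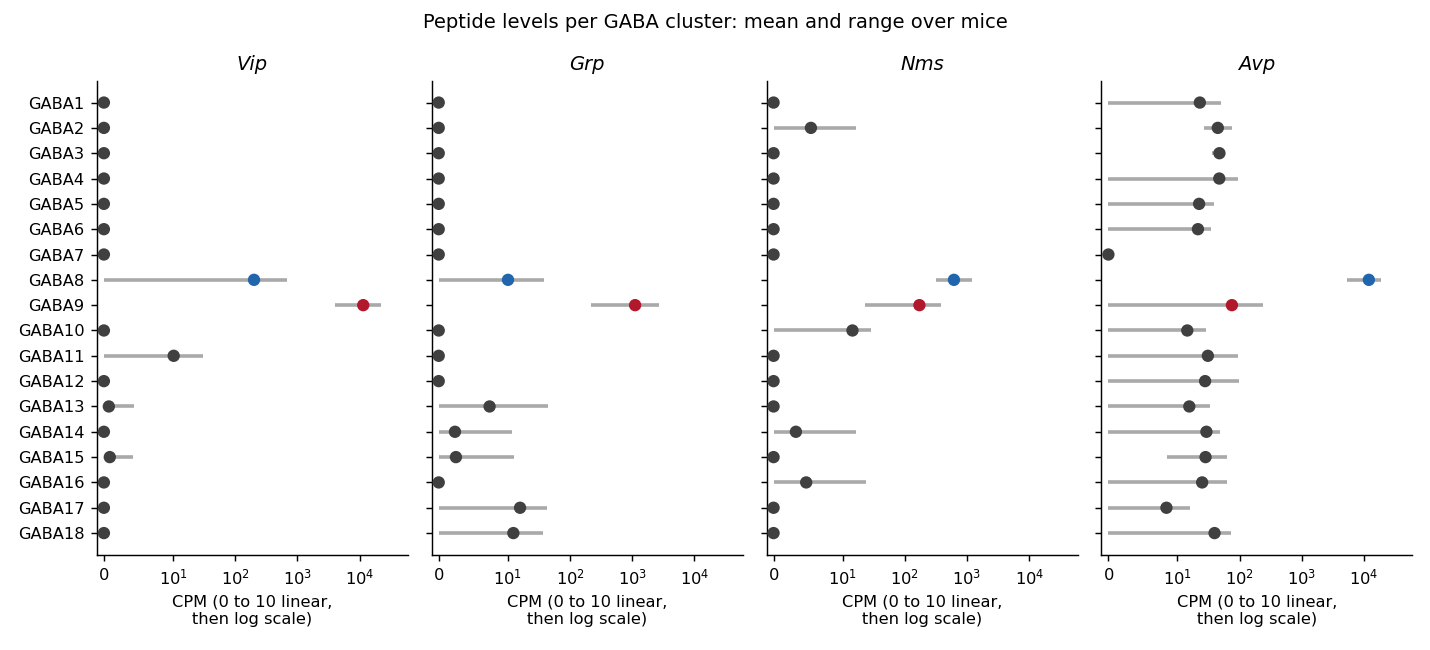
Mean level (points) and range over mice (bars) of Vip, Grp, Nms and Avp in the 18 GABA clusters, taken from mice that had 5 or more cells of that cluster. The axis in CPM is linear from 0 to 10 and logarithmic above. GABA9 (red) is highest in Vip and Grp, at 11453 and 1114 CPM, and GABA8 (blue) in Nms and Avp, at 616 and 11940 CPM.

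Beside Vip and Grp, the genes with the largest excess over the other GABA clusters included regulators of cell identity. Lhx1 stood at 1169, 606 and 791 CPM in the fed and 382, 934 and 1080 CPM in the food-deprived mice, and all but 10 of the 71 cells had a UMI. GABA8 had 92.8 ± 33.9 CPM of Lhx1, and the next GABA cluster, GABA18, 153 CPM. Of the 17 SCN transcription factors and markers listed, 16 had UMIs and 14 stood at 100 CPM or more. In 5 of them GABA9 had the highest mean of the 18 GABA clusters, namely Lhx1, Six6, Zfhx3, Syt10 and Id4. Six3, an eye field and SCN transcription factor, was at 561 ± 97.7 CPM and Zfhx3, mutated in a short-period mouse, at 387 ± 114 CPM. Both were also found in GABA8, at 424 ± 118 and 264 ± 83.2 CPM. Rora and Rorb, nuclear receptors of the clock loop, were lower than in GABA8, at 103 ± 38.0 and 139 ± 97.5 CPM against 272 ± 59.6 and 371 ± 81.2 CPM. Dlk1 was lower as well, at 1227 ± 487 against 2842 ± 652 CPM, and Scgn was at 0.

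Of the other defining genes, 4 are given here for their known place at the cell surface or synapse, a choice made after their values were seen. Cd24a, a surface glycoprotein, stood at 216 to 934 CPM over the 6 mice, a mean of 649 ± 248 CPM against 11.2 ± 8.54 CPM in GABA8. Synpr (synaptoporin, a synaptic vesicle protein) stood at 617 ± 133 CPM against 47.5 ± 15.4 CPM. Tpbg, a membrane glycoprotein, had 282 ± 80.9 against 11.1 ± 15.4 CPM. Cadps2, a factor of dense-core vesicle release, had 300 ± 93.0 against 124 ± 82.7 CPM. In these 4 genes every GABA9 mouse was above the GABA8 mean. Syt10, Rgs16 and Igfbp5 were shared by the 2 clusters, with 692, 570 and 705 CPM in GABA9 and 473, 735 and 707 CPM in GABA8. Calb2 (calretinin), at 448 ± 84.3 CPM, was higher in GABA6, at 661 CPM.

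The 10 genes lowest against the other GABA clusters were Npy, Sst, Gal, Cartpt, Agrp, Th, Ghrh, Rgs4, Ecel1 and Avp. Sst reached 9044 CPM in GABA14, Gal 7524 CPM in GABA13 and Npy 12874 CPM in GABA15, while GABA9 had 25.8, 15.2 and 72.8 CPM. Th and Ghrh had no UMI in the 71 cells. The 14 Npy UMIs of GABA9 were in 2 cells.

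Receptors were found with few UMIs. Of 15 receptors for SCN peptides and resetting signals, 11 had a UMI and none reached 100 CPM. Vipr2, the VIP receptor of the SCN, had 12 UMIs in 9 cells, at 50.7 ± 34.4 CPM against 334 ± 147 CPM in GABA8. Prokr2, the prokineticin receptor, had 2 UMIs, at 5.88 ± 9.23 against 149 ± 48.5 CPM. Grpr, the receptor of gastrin-releasing peptide, had 5 UMIs, at 22.3 ± 31.5 against 21.2 ± 12.7 CPM. Vipr1, Htr1b, Hcrtr2 and Oprm1 were at 0. Of 10 receptors of metabolic hormones, 6 were at 0, among them Lepr (leptin), Insr (insulin), Mc4r and Glp1r. At 241048 UMIs a count of 0 allows a level of up to 12.4 CPM over the cells together, for counting error only. Ghsr, the ghrelin receptor, had 7 UMIs in 3 cells, a mean of 32.8 ± 44.7 CPM, and the next GABA cluster, GABA15, had 28.9 CPM.

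GABA genes and the genes of peptide granules were less distinct. Gad1, Gad2 and Slc32a1 ranked 13, 10 and 8 of the 18 GABA clusters, at 419 ± 181, 838 ± 239 and 435 ± 111 CPM. Of 12 peptide processing and granule genes, all had UMIs and in none was GABA9 the highest GABA cluster. Scg2 (secretogranin II) had 3989 ± 1753 CPM against 9343 ± 985 CPM in GABA8, and Vgf 211 ± 79.3 against 1200 ± 319 CPM. Pcsk1n, an inhibitor of a prohormone convertase, stood at 2765 ± 1081 CPM. Among GABA receptor subunits GABA9 had the highest mean in Gabrg1, at 194 ± 60.3 CPM with GABA8 at 36.3 ± 32.0 CPM. Among ion channels those with the highest mean in GABA9 included Cacna1d and Nalcn, at 112 ± 54.1 and 132 ± 47.0 CPM, and Cacna1a at a lower level. GABA8 had 34.4 and 92.1 CPM of Cacna1d and Nalcn.

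The files hold 21 of the clock genes, of which 20 had UMIs and 8 reached 100 CPM. GABA9 had the highest mean of the GABA clusters in Per1, Nr1d2, Bhlhe40 and Csnk1e. Dbp, an output gene of the clock, was at 382, 67.4 and 0 CPM in the fed and 412, 294 and 400 CPM in the food-deprived mice. Nr1d1, a repressor in the loop, ran from 0 to 412 CPM. Per1 stood at 79.7 ± 30.6 CPM and Nr1d2 at 139 ± 44.5 CPM, close to GABA8 (79.2 and 121 CPM). Per2 had 10 UMIs, all in food-deprived mice 1 and 2. Immediate early genes, which neurons switch on when stimulated, were high in all 6 mice. Fos stood at 1617 to 3680 CPM, Egr1 at 1020 to 2290 CPM and Fosb at 800 to 2054 CPM. Of the 15 listed, Egr1, Fosb and Dusp1 had their highest GABA mean in GABA9. Egr1 stood at 1576 ± 527 CPM and Fosb at 1482 ± 439 CPM, against 386 ± 242 and 1110 ± 343 CPM in GABA8. Junb was at 1027 ± 445 CPM against 105 ± 51.4 CPM in GABA8. Dissociation of tissue is known to switch on these genes, and its part in the levels was not tested.

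The genes whose level followed Vip most closely over the 18 GABA clusters were Klf7, Pou2f2, Nop58, Eif3h and Nfkbiz, with Spearman's rho of 0.764, 0.754, 0.741, 0.738 and 0.709. Smarca1 and Thrap3 tied with the fifth of these. Most clusters stood at or near 0 Vip, so the ranks below GABA8 rest on a few UMIs, and the clusters share libraries and depth. Pou2f2 and Nfkbiz, a POU factor and an inhibitor of the NF-kB family, were also among the defining genes, at 251 ± 155 and 411 ± 275 CPM.

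The cells of GABA9 were not alike in their peptides. Vip UMIs per cell ran from 0 to 320, and the cell with 320 held 7019 UMIs in all. A Vip UMI was found in 53 of 71 cells (74.6%) and, thinned to 1000 UMIs, in 72.8% of the 68 cells with that depth. The thinned share was 3.65% in GABA8, 0.130% in the other GABA clusters and 0.195% in MO. The 18 cells with no Vip UMI were found in all 6 mice, 8 of them in food-deprived mouse 3. By mouse, 7 of 10, 4 of 7 and 7 of 8 cells of the fed and 15 of 16, 7 of 9 and 13 of 21 cells of the food-deprived mice had a Vip UMI. With these numbers the exact 95% binomial intervals overlap, as 18.4% to 90.1% in fed mouse 4 and 69.8% to 99.8% in food-deprived mouse 1.

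Grp was found in 27 cells, 19 with and 8 without Vip, and 10 cells had neither peptide. A Grp UMI was found in 38.0% of GABA9 cells and 0.198% of MO cells, and in 32.9% and 0.0861% once thinned. No cell with a Grp UMI had more than 66 Vip UMIs, and 12 cells of 5 mice had more than that. No cell held both Grp and Nms, whereas 19 of the 20 cells with Nms had Vip. The Grp cells were not shallower, with a median of 3290 UMIs against 2738.5 in the others. Calb2 was found in 24 of the 27 Grp cells and 17 of the 44 others, Cd24a in 24 and 22, and Pcp4 (a calmodulin-binding protein) in 21 and 15. All 10 cells with neither peptide had a Lhx1 UMI, 6 had Gad2 and 6 had Penk.

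**Figure D2:**
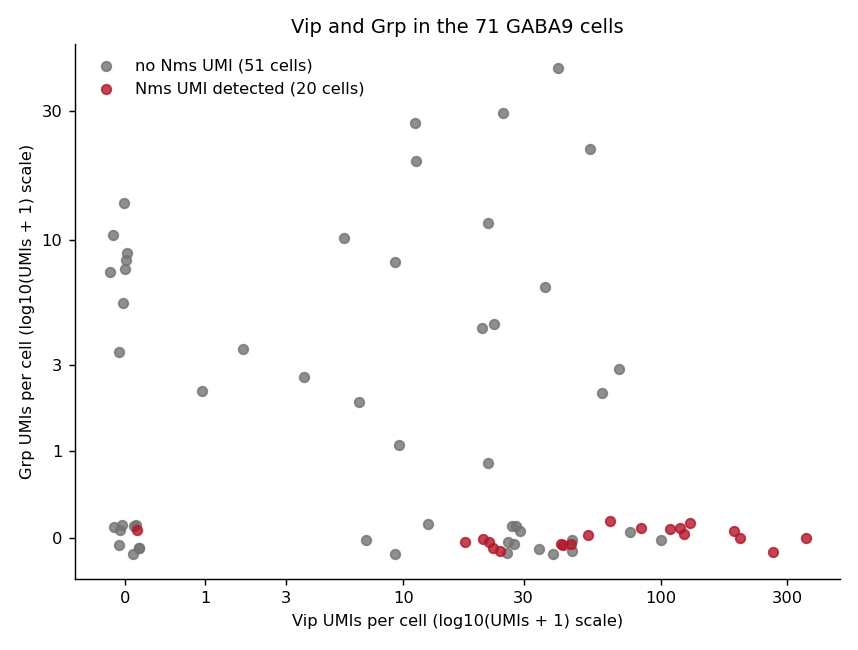
Vip (x) and Grp (y) UMIs of each of the 71 GABA9 cells, on log10(UMIs + 1) scales with a small random shift of the points. Red marks the 20 cells with a Nms UMI. All cells with Grp lie at or under 66 Vip UMIs, and no red cell has Grp.

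The cells were then divided by Vip at 0, 1 to 49 and 50 or more UMIs, limits chosen after the values were seen, so the values are a description. The groups held 18, 37 and 16 cells, each from all 6 mice, with medians of 3198.5, 2447 and 4432 UMIs. The limits are not scaled to depth, so a deeper cell reaches 50 Vip UMIs more easily. Vip made up 0%, 0.834% and 2.78% of the UMIs of the groups. Nms was found in 1, 8 and 11 cells of the groups, at 43.9, 139 and 429 CPM of the cells together. C1ql3, a secreted synaptic protein, stood at 29.3, 29.9 and 471 CPM, and Rgs16, a regulator of G-protein signalling, at 395, 398 and 1177 CPM. Ppp1r1a, an inhibitor of protein phosphatase 1, stood at 249, 358 and 2423 CPM and Scg2 at 1844, 3473 and 6756 CPM. Grp had its highest level in the middle group, at 966, 1732 and 360 CPM, as had Pcp4 at 234, 1055 and 415 CPM. Penk ran the other way from Vip, at 951, 428 and 41.5 CPM, and was found in 10, 9 and 3 cells. Its level rests on few cells. Single cells with 24 and 18 UMIs gave most of the 65 in the group with none. Cells with 18 and 12 gave most of the 43 in the middle group. Lhx1 stood at 820, 776 and 844 CPM. Food-deprived mouse 1 gave 7 of the 16 cells with most Vip, and without it that group stood at 241 CPM of C1ql3, 1506 of Ppp1r1a, 783 of Rgs16, 723 of Grp, 783 of Pcp4 and 1356 of Lhx1. The Grp and Pcp4 of that group came largely from fed mouse 3, and without the cells whose barcode was found in 2 libraries they were 75.9 and 213 CPM. Each mouse was left out in turn, an alternative chosen after seeing the data. Nms, C1ql3, Rgs16, Ppp1r1a and Scg2 were still highest in the group with most Vip. Grp and Pcp4 were still highest in the middle group and Penk in the group with none. Fed mice 3, 4 and 5 gave 2, 1 and 1 of the 16 cells with most Vip. These fed cells had no C1ql3 UMI and 0, 2, 0 and 5 of the 175 Ppp1r1a UMIs. They had 8, 1, 20 and 28 of the 488 Scg2 UMIs. Leaving out 1 mouse at a time does not separate Vip from feeding state, and whether the order holds within fed mice was not tested.

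**Figure D3:**
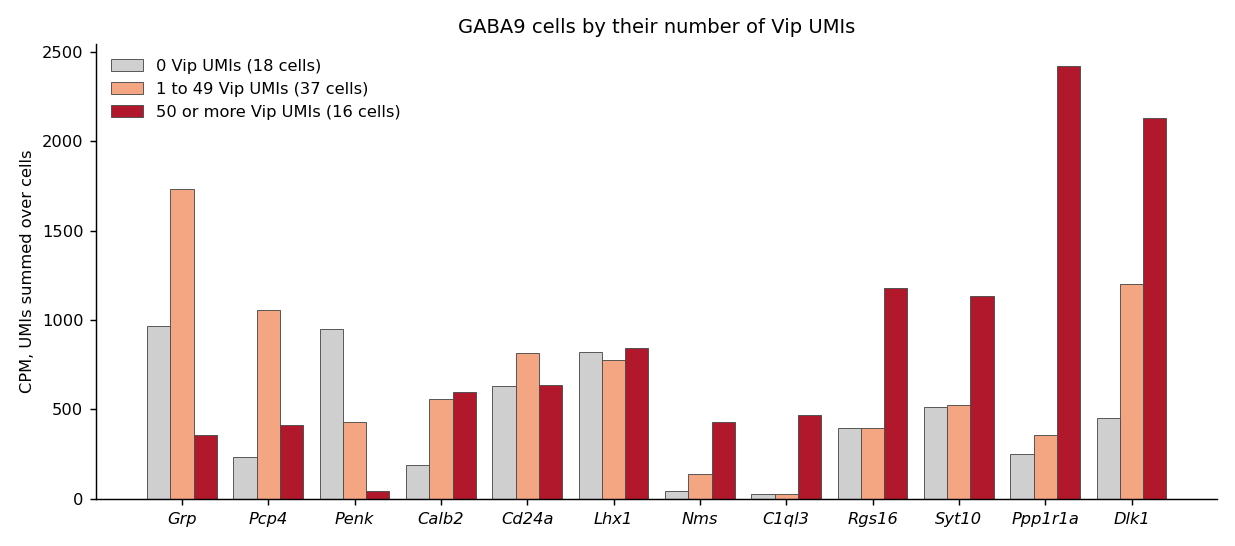
Level in CPM of 12 genes in GABA9 cells with 0 (18 cells), 1 to 49 (37 cells) and 50 or more Vip UMIs (16 cells), with the UMIs of each group's cells summed over 6 mice. Ppp1r1a reaches 2423 CPM in the group with most Vip, Grp 1732 CPM in the middle group and Penk 951 CPM in the group with none. Of the 16 cells with most Vip, food-deprived mice 1 to 3 gave 7, 2 and 3.

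GABA9 made up 4.95%, 5.43% and 3.07% of the GABA neurons of fed mice 3 to 5 and 5.03%, 4.09% and 9.72% of those of food-deprived mice 1 to 3. Fed mice 1 and 2 had 0 of 12 and 0 of 34, which by 3 counts of the total allows shares of up to 25% and 8.82% (the exact 95% limits in the plot of shares are 26.5% and 10.3%). Food-deprived mouse 3 was the highest, and the other food-deprived mice lay within the range of the fed ones. Over mice with at least 20 GABA neurons the mean share was 3.36% ± 2.46 (SD, n = 4) in fed and 6.28% ± 3.02 (n = 3) in food-deprived mice, a difference of 2.92 points (two-sided exact permutation test, p = 0.257, smallest possible 0.0286). The difference was 1.20 points without food-deprived mouse 3, 1.80 points without fed mouse 2, and 0.0810 and -1.34 points within batches 1 and 2. In such samples fewer captured cells of a type and fewer cells in the tissue cannot be told apart.

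**Figure D4:**
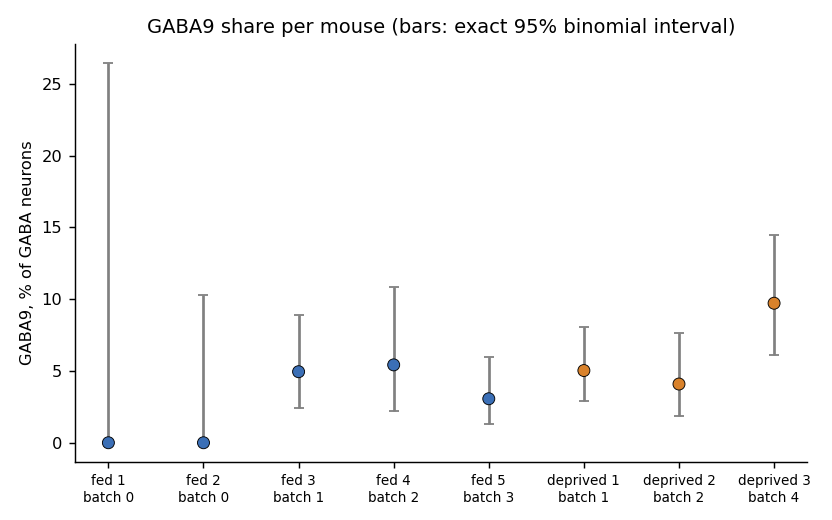
Share of GABA9 among the GABA neurons of each of the 8 mice, in percent, with exact 95% binomial intervals, which cover counting error only. Fed mice are blue and food-deprived mice orange. Food-deprived mouse 3 stands at 9.72%, and the other 5 mice with GABA9 cells lie between 3.07% and 5.43%.

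What changed in GABA9 with 24 hours without food was tested over 875 genes with edgeR's quasi-likelihood test in fed mice 3 to 5 and food-deprived mice 1 to 3. No gene passed an adjusted p of 0.05 (0 of 875, 0.0%), 38 genes (4.34%) had an unadjusted p under 0.05, and DESeq2 called 0 of 11139 with 85 at an unadjusted p under 0.05. The log2 differences had a median of 0.01, with 443 genes higher and 432 lower. The groups did not overlap in 44 genes that were higher (5.03%) and 47 that were lower (5.37%). With batch as a block, which rests on the 4 mice of batches 1 and 2, 9 of 875 genes were called (1.03%), 5 higher and 4 lower. With 1 fed and 1 food-deprived mouse in each of these batches, the error in that fit rests largely on spread shared over genes.

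Vip and Grp were among the 9 genes called with the block. In batch 1 Vip was 5554 CPM in the fed and 22197 CPM in the food-deprived mouse, and in batch 2 4075 and 11823 CPM. In the mice of batches 3 and 4 the order was the opposite, with 18626 CPM in the fed and 6439 CPM in the food-deprived mouse. The log2 difference was 0.54 ± 0.53 (SE, adjusted p = 0.986) without and 1.76 ± 0.28 (adjusted p = 3.75e-07) with the block. Grp was lower after food deprivation in batch 1 (2676 and 214 CPM) and batch 2 (1617 and 454 CPM) and higher in food-deprived mouse 3 (1220 CPM) than in fed mouse 5 (503 CPM). Its log2 difference was -1.47 ± 0.54 (adjusted p = 0.986) without and -2.80 ± 0.39 (adjusted p = 1.56e-09) with the block. For both genes the SE and adjusted p with the block measure little of the spread between mice, since each batch gives 1 pair. Without fed mouse 5 both were also called (edgeR, adjusted p = 0.0145 for Vip and 0.00377 for Grp). That fit reuses the mice of batches 1 and 2 with food-deprived mouse 3, so it is no independent support. Without food-deprived mouse 1 the log2 difference of Vip was -0.00038.

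The genes called with the block also included Scg2, Chga and Ppp1r1a, higher, and Pcp4, Prpf38b and Rtf1, lower. Pcp4 stood at 1417, 1044 and 216 CPM in the fed and 183, 320 and 620 CPM in the food-deprived mice. Ppp1r1a stood at 180, 303 and 1007 CPM in the fed and 2198, 667 and 560 CPM in the food-deprived mice. In both genes fed mouse 5 lay within the range of the food-deprived mice. Scg2, at 2316, 1583 and 6041 CPM in the fed and 5511, 4484 and 3999 CPM in the food-deprived mice, and Chga (chromogranin A), at 292, 606 and 1582 CPM and 1557, 1094 and 480 CPM had their highest fed value in fed mouse 5, as Vip did. Cells with 50 or more Vip UMIs were 2 of 10, 1 of 7 and 1 of 8 in the fed and 7 of 16, 2 of 9 and 3 of 21 in the food-deprived mice. This limit is not scaled to depth, and the median of UMIs per cell ran from 1654 in fed mouse 5 to 4698 in fed mouse 4. Counts of such cells in different mice therefore also follow depth. Cells with Grp were 6, 3 and 2 in the fed and 3, 4 and 9 in the food-deprived mice. Whether this mix of cells sets the differences between mice was not tested.

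Of the genes with the smallest p, Hsph1, a heat shock chaperone, came nearest to the threshold. It stood at 495, 842 and 503 CPM in the fed and 229, 187 and 140 CPM in the food-deprived mice, and every food-deprived mouse was below every fed one. The log2 difference was -1.72 ± 0.38 (edgeR, adjusted p = 0.379, 0.106 with the block and 0.0204 without fed mouse 5). Nemf (ribosome quality control), Ppig (a cyclophilin) and Tra2a (a splicing factor) had lower values in all 3 food-deprived mice, at 362, 751 and 422 CPM in the fed and 151, 417 and 163 CPM in the food-deprived means. Gnb2l1 (a ribosomal scaffold protein), Pfdn1 (a prefoldin subunit) and Ndufb2 (a subunit of respiratory complex I) had higher values in all 3, at 168, 266 and 209 against 413, 507 and 447 CPM. None of these 6 passed, each with an adjusted p of 0.986 over 875 genes.

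**Figure D5:**
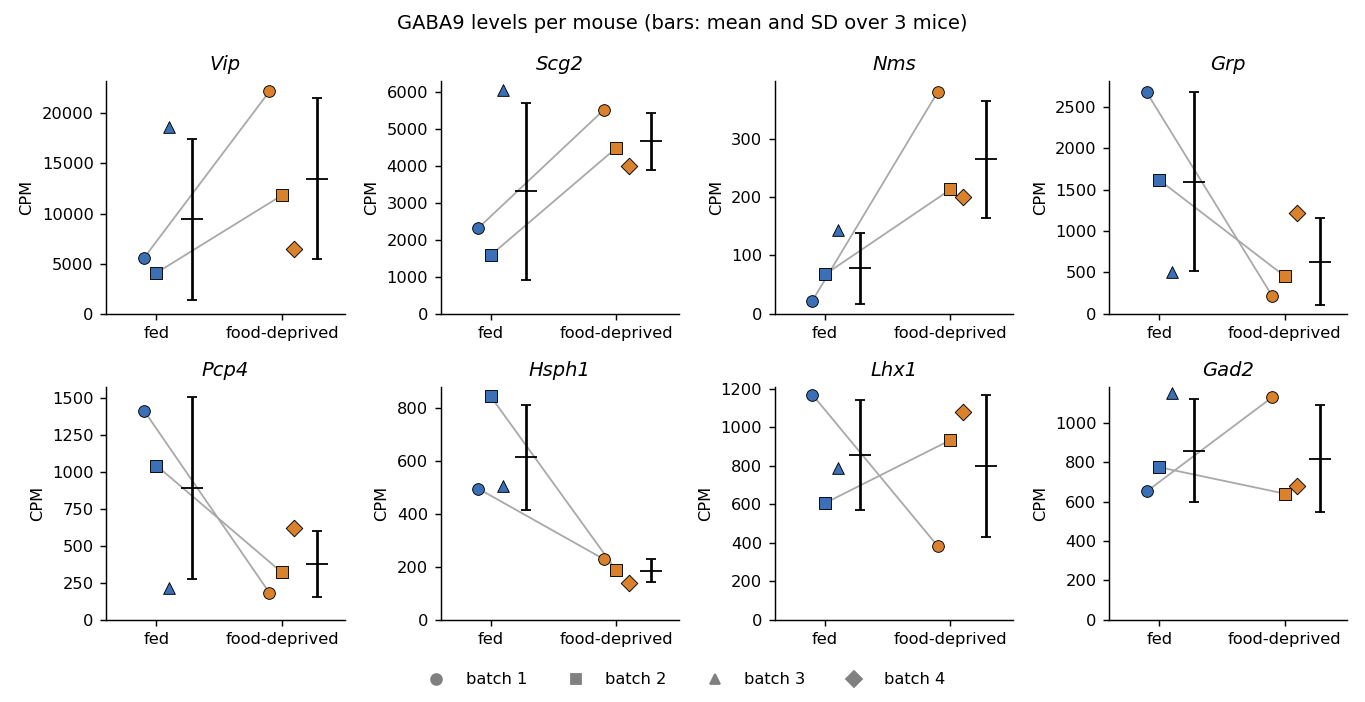
Level in CPM of 8 genes in GABA9 in each of 3 fed (blue) and 3 food-deprived (orange) mice. Symbols mark the batch, grey lines join mice of 1 batch, and bars give the mean and SD. Vip is higher in the food-deprived mouse on both lines, at 22197 against 5554 and 11823 against 4075 CPM, while fed mouse 5 stands at 18626 CPM, and Hsph1 lies between 140 and 229 CPM in the food-deprived mice.

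By list, 0 genes of any were called in the fit with all 6 mice and no block. Vip, Grp, Scg2 and Chga were called with the block, and Vip, Grp, Scg2 and Hsph1 without fed mouse 5. Calls from fits with 1 fed mouse, such as those of Syt10 and C1ql3, are left out here. Of the heat shock genes 6 were tested, 1 higher and 5 lower, with a median log2 difference of -0.11, and the 13 genes summed to 9026 to 11794 CPM in the fed and 7297 to 8499 CPM in the food-deprived mice. Of the endoplasmic reticulum chaperones 5 were tested, 1 higher and 4 lower, with a median of -0.52, and the 17 genes summed to 5779 to 7780 CPM in the fed and 4946 to 5259 CPM in the food-deprived mice. In both lists the sums did not overlap, while 1 gene of each, among those tested, did not overlap by itself. Hspa5, the main chaperone of that compartment, stood at 1057, 1280 and 791 CPM in the fed and 565, 614 and 740 CPM in the food-deprived mice (log2 difference -0.75 ± 0.29, adjusted p = 0.986). Of the immediate early genes 8 were tested, 4 higher and 4 lower, with a median of 0.02. Of the SCN transcription factors and markers 10 were tested, 6 higher and 4 lower, with a median of 0.24, among them Lhx1 at -0.18 ± 0.38. The 17 genes of that list summed to 4715 to 5969 CPM in the fed and 6352 to 7816 CPM in the food-deprived mice, which did not overlap. The sums of the other 10 lists overlapped, and single genes did not overlap in 5.03% (higher) and 5.37% (lower) of all 875. The calcium-binding protein gene Calb1, at 360, 33.7 and 288 CPM in the fed and 443, 507 and 700 CPM in the food-deprived mice, did not overlap (1.23 ± 0.49, adjusted p = 0.986) as the only 1 of the 10 genes tested in that list. Of the peptide granule genes 10 were tested, 6 higher and 4 lower, with a median of 0.20, and in 1 of them, Cpe (carboxypeptidase E), the groups did not overlap, at 606 ± 123 and 1017 ± 109 CPM (n = 3 each, adjusted p = 0.986). The 3 GABA genes tested were higher, with a median of 0.22.

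Whether GABA9 answered food deprivation unlike GABA8 was tested within mice. In the planned fit, with at least 10 cells of both clusters, only fed mouse 3 and food-deprived mice 1 and 3 remained. With 1 fed mouse the spread between mice comes from the food-deprived mice alone, so the 4 of 4803 genes called there (0.0833%), Vip, C1ql3, Chga and Pcp4, set that mouse against the others and show no difference between conditions. Fed mouse 3 had no Vip UMI in GABA8 and no C1ql3 UMI in GABA9, so the fitted size of these 2 differences is no bound. In GABA8 Vip was at 0, 0, 19.3 and 681 CPM in fed mice 2 to 5 and at 255, 67.0 and 384 CPM in the food-deprived mice. With 5 cells as the minimum all 6 mice entered and 0 of 3217 genes were called by edgeR, 134 at an unadjusted p under 0.05, with the smallest adjusted p at 0.600 for C1ql3. C1ql3 in GABA9 was at 0, 33.7 and 71.9 CPM in the fed and 412, 214 and 40.0 CPM in the food-deprived mice, and in GABA8 at 263 to 437 CPM and 283 to 487 CPM. The GABA9 values of fed mice 4 and 5 are 1 UMI each. The difference in Nms was 2.21 ± 0.61 (adjusted p = 0.634), and in GABA9 its 3 food-deprived values lay above the 3 fed ones. The fed values rest on 1 cell with 1 UMI in fed mouse 3, 1 cell with 2 in fed mouse 4 and 2 cells with 1 each in fed mouse 5. Nms was too low to be among the 875 genes tested in GABA9, of which 5.03% were higher without overlap. Without fed mouse 5, which leaves 5 mice, 7 genes were called, Vip, C1ql3, Chga, Nms, Pcp4, Ppp1r1a and Scg2. In GABA8 alone edgeR called 0 of 4476 genes, with 110 at an unadjusted p under 0.05.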

How the data were processed

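Single cells of mouse hypothalamus were profiled by Drop-seq. The authors deposited 1 table of UMI counts merged over 17 libraries, the same counts per library, and a cell table with their cluster names, per the file headers. Reads were mapped to mm9, per the submitters' processing notes, and the aligner is not given in the sources used here. The cluster names, made from these counts, were taken as deposited, and no doublet caller was run. The members and gene lists were chosen with earlier results of these data known.

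The counts of the GABA9 cells were summed per mouse and divided by their total (CPM). UMI counts of 3' tags are not scaled by gene length. Food-deprived and fed mice were compared with edgeR 4.0.16 (quasi-likelihood, TMM factors, filterByExpr, Benjamini-Hochberg adjustment, threshold 0.05) in R 4.3.3, and DESeq2 1.42.0 was an alternative. A minimum of 10 cells per mouse was planned, but it left 1 fed mouse with enough cells, so 5 cells were used for that comparison, giving 3 mice a group. The comparison with GABA8 kept 10 cells and had mouse as a block. Shares of GABA9 were tested over mice by an exact permutation test over all arrangements of the mice, and exact binomial intervals came from scipy 1.17.1. Shares of cells with a UMI were set after thinning to 1000 UMIs per cell.

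Mice 3 and 1 of batch 1 and 4 and 2 of batch 2 (fed and food-deprived) share a batch by their labels. The deviations of these pairs from their group means had correlations of 0.179 and 0.0571, and those of other pairs ran from -0.191 to 0.191. On simulated data with 913 genes tested, 40 of 65 genes changed 4-fold and 57 of 60 changed 8-fold were called, with 11 false calls. Changed genes that the filter removed are not in these totals. The simulated spread was set to be the same for all genes and was not taken from these mice. The shares called are therefore not the power of the test on the real data.

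Named genes were the 25 with the largest and 10 with the smallest log2 ratio of GABA9 to the other GABA clusters (offset of 10 CPM, mean of at least 100 CPM), of which those described were taken by kind; the 10 smallest p for food deprivation with genes called in an alternative; the listed genes, by counts with a few values; those called against GABA8; and the 5 most like Vip over the GABA clusters. Alternatives covered the scaling, the filter, the minimum of cells, the batch block, the library type and each mouse in turn. Some genes among those counted are not reported here.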

Additional observations from a re-analysis of the deposited data

Results flagged for a closer look

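The interaction test of edgeR between GABA9 and GABA8 called 4 genes in fed mouse 3 and food-deprived mice 1 and 3. With 1 fed mouse there is no spread between fed mice, and the calls show no difference between conditions. As log2 of the GABA9 response over the GABA8 response, the difference was -7.29 for Vip (adjusted p = 9.6e-06), -2.21 for Pcp4 (adjusted p = 0.0085), 2.04 for Chga (adjusted p = 0.0184) and 8.33 for C1ql3 (adjusted p = 0.0218). The values of Vip and C1ql3 rest on a cluster at 0 in fed mouse 3 and are no bound. With all 6 mice 0 of 3217 genes were called.

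Cells outside the named clusters also held these peptides. The unnamed remainder, zothers, had 7 cells of 4 mice with 10 or more Vip UMIs, against 44 in GABA9. All 7 had Gad2 and Pcp4, and none had Lhx1, Grp or Nms. These 7 were deeper, with a median of 8876 UMIs against 3086.5 in the 44. Of all zothers cells 56.0% had a Gad2 UMI and 61.7% a Pcp4 UMI. A further 29 zothers cells of 5 mice had 3 or more Grp UMIs, against 22 cells in GABA9. Of the 29, 23 had Slc17a6, a glutamate transporter, 7 had Gad2, 2 had Lhx1 and none had Vip.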

How the results depend on the processing

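The number of genes called between food-deprived and fed mice in GABA9 was 0 with all 6 mice, and also with RLE factors, DESeq2 and, chosen after seeing the data, without barcodes found in 2 libraries. It was 3 without a filter on low counts, 9 with the replicate block (batch), 17 with at least 10 cells and 10 in depleted libraries, both of which hold 1 fed against 2 food-deprived mice, the fed one being assumed to vary like the others. Leaving out each mouse gave 0 to 11 genes, 11 without fed mouse 5. The block and the fit without fed mouse 5 shared 7 genes, but fed mice 3 and 4 and food-deprived mice 1 and 2 are in both. The overlap is therefore no independent support. Vip kept its direction in 12 of 13 alternatives and was called in 3, and its log2 difference ran from -0.00038 (without food-deprived mouse 1) to 1.52 (without fed mouse 5) when each mouse was left out. The cause was not tested. The 4 genes called between GABA9 and GABA8, with 1 fed mouse, became 0 with at least 5 cells, also with RLE factors (0) and no filter (0), and 0 to 7 when each mouse was left out, 7 without fed mouse 5. Within the 10-cell minimum RLE factors and no filter each gave 4. The difference in the share of GABA9 ran from 1.20 to 4.02 points when each mouse was left out, and the mean within batches, the paired value, was -0.627 points. The level of Vip over the 3 mice with at least 10 cells ran from 5997 to 14318 CPM when each of these was left out, each value a mean of 2 mice. Fits with at least 20 cells, in retained libraries only, and without a food-deprived mouse in the 10-cell comparison with GABA8 could not be run, since too few mice remained. Levels under 71.9 CPM rest on single UMIs in the shallowest mouse.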

Other observations

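Within GABA8, 9 cells of 4 mice had 10 or more Vip UMIs. Summed, they stood at 11777 CPM of Vip against 18251 CPM in the 44 GABA9 cells chosen in the same way, and 6 of them had Avp, 8 Syt10, 4 Nms, 4 Lhx1 and none Grp.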
